A study of Mus musculus with 8 samples.

Results

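The loci described here are those of 9 genes that act just below the surface receptors of haematopoietic cells: Lyn, Fgr, Syk, Btk, Vav1, Plcg2, Pik3cg, Pik3cd and Inpp5d. Every PU.1 or CEBPA ChIP-Seq peak whose centre lay in the gene body or within 20 kb of it was assigned to the gene, which gave 140 of the 67673 peaks in 4 lists, at 9 of 21951 protein-coding genes. The cells were X18.1.1, a murine AML (acute myeloid leukaemia) line from a radiation-induced tumour, which has lost a Pu.1 allele by deletion and carries mutations in the remaining allele that affect the DNA-binding and PEST domains. All cells therefore made mutant PU.1, whichever vector they carried. The empty-vector line received the MSCV retrovirus alone, and the PuER line received the same vector encoding wild-type PU.1 fused to the oestrogen receptor ligand-binding domain, which OHT (hydroxytamoxifen) activates. The study calls these conditions PU.1- and PU.1+. Each line was a single clone obtained by limiting dilution, both were given 100 nM OHT for 2 h, and 1 library was made for each antibody in each line. The antibody recognised PU.1 and does not separate the mutant protein from the fusion. The series lists 8 samples, and the 4 for H3K27Ac or IgG were left out here.

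Antigen receptors, Fc receptors and integrins signal through a relay that these genes supply. Src-family kinases phosphorylate receptor tails, Syk docks on them and phosphorylates adaptors and enzymes, and Btk and Vav proteins join the complex at the membrane. Phospholipase C gamma then makes the second messengers that release calcium and activate protein kinase C, PI 3-kinases make the lipid phosphatidylinositol trisphosphate that holds Btk at the membrane, and the phosphatase encoded by Inpp5d removes a phosphate from that lipid. PU.1 is an ETS-family factor that binds DNA around a GGAA core, preferring purines before it, and CEBPA is a basic leucine zipper factor required for granulocytic and monocytic development.

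The files give peak positions only. A peak is called shared here when it overlaps by at least 1 bp a peak of the same antibody in the other line, and otherwise it is called in a single line. The deposited lists hold no heights, read counts or p-values, so the depth of each library is unknown, an uncalled site may still be bound, and no difference between lines has a replicate check or a p-value. Intervals in brackets are exact (Clopper-Pearson) 95% intervals for a share and cover counting error only.

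The sequences below come from the GRCm38 (mm10) reference, plus strand, 5′ to 3′, and show the centre of the PuER PU.1 peak nearest to the start of each gene's principal transcript. They are shown because they are the PuER peaks closest to that start. At Pik3cd another PuER peak lay 949 bp from an alternative start. At Vav1 and Plcg2 a PU.1 peak of the empty-vector line lay closer, and it is printed further on. Capitals mark GGAAGT (the ETS site), GAGGAA (the PU.1 core) or TTGCNNAA (the CEBP site) on either strand, so that ACTTCC and TTCCTC are the first and second of these read from the other strand. Windows of 80 bp are printed, or 30 bp where the window includes untranslated exon.
Lyn, start, chr4:3678114-3678143: agcgacagccagTTCCTCtcccaccgagcc
Fgr, intron 1, chr4:132983041-132983120: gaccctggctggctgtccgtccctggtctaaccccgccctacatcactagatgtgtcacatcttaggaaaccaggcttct
Syk, start, chr13:52596872-52596901: tGAGGAAaagccACTTCCctagttacagac
Btk, start, chrX:134583114-134583143: ttacagtccagaGAGGAAggacagtctgag
Vav1, intron 1, chr17:57285175-57285254: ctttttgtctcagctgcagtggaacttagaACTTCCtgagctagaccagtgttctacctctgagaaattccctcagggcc
Plcg2, upstream, chr8:117494957-117495036: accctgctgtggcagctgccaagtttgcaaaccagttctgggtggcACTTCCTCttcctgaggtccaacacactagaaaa
Pik3cg, start, chr12:32208605-32208634: gcacctcgtctcTTCCTCttttctggggct
Pik3cd, intron 1, chr4:149696867-149696946: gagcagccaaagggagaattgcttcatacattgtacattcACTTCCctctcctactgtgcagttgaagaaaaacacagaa
Inpp5d, start, chr1:87620332-87620361: gtgcctgaaacaGGAAGTcagtcagttaag
Of these 9 windows, those of Fgr and Pik3cg belong to peaks shared by both lines, and the other 7 were called only in PuER. The Fgr run contains no marked site. In the Fgr peak the nearest match to GAGGAAGT, the longer string called the PU.1-type site here, lay 52 bp from the peak's centre and so outside the printed bases.

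The next sequences are at sites where a PU.1 peak and a CEBPA peak that overlap were both called only in PuER. The Pik3cd window above is a further site of this kind, so that there were 5 in all.
Syk, upstream, chr13:52572653-52572732: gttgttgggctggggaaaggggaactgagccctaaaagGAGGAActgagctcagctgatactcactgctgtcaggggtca
Syk, intron 3, chr13:52615152-52615231: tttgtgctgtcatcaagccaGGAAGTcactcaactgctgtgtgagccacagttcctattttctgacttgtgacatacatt
Vav1, downstream, chr17:57347087-57347166: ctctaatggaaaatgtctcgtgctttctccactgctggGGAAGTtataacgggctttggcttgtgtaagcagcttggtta
Pik3cg, intron 4, chr12:32199526-32199605: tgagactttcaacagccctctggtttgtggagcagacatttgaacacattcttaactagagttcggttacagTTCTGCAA
A single capitalised match was present in each of the 4. It was an ETS site in Syk intron 3 and at Vav1, the PU.1 core upstream of Syk, and a CEBP site in Pik3cg.

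The last set lies under the 6 PU.1 peaks called only in the empty-vector line.
Btk, window, Rpl36a start, chrX:134585444-134585523: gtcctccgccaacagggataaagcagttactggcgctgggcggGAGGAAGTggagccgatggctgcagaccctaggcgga
Btk, window, Hnrnph2 start, chrX:134601197-134601226: gtgaccgagatctcacatgacgtagatgct
Fgr, window, Ahdc1 start, chr4:133011526-133011605: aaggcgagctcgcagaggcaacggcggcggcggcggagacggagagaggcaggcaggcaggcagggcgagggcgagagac
Vav1, own start, chr17:57279120-57279149: ggcaggcggcggcggtggtgaaggaacgag
Plcg2, intron 1, chr8:117498601-117498680: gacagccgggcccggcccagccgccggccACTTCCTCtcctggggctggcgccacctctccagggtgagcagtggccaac
Plcg2, intron 2, chr8:117527989-117528068: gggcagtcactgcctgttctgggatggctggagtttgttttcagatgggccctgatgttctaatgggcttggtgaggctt
Of these, the windows at the Rpl36a start and in Plcg2 intron 1 contain GAGGAAGT, the latter on the other strand. The other 4 runs hold no marked site. Outside the printed bases, the nearest GAGGAAGT lay 62 bp from the peak's centre at the Hnrnph2 start and 42 bp at Vav1. In the Plcg2 intron 2 peak, GAGGAA lay 58 bp and GGAAGT 105 bp from the centre. The peak at the Ahdc1 start held neither string.

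PU.1 peaks were called at more of these loci, and in greater number, in PuER. There were 14 PU.1 peaks at 7 of the 9 genes in the empty-vector line and 47 at all 9 in PuER. A PU.1 peak was present at 23.7% of all protein-coding genes in the empty-vector line and at 41.4% in PuER. The whole PU.1 list also grew, from 5288 to 15683 peaks, and the 9 genes held 0.265% of the first and 0.300% of the second. At these genes 39 of the 47 peaks were called only in PuER (83.0% [69.2 to 92.4]), against 81.1% of all PU.1 peaks in that list. The 8 shared peaks were at Lyn, Fgr, Plcg2, Pik3cg and Inpp5d, and a shared PU.1 peak was present at 13.4% of genes overall. In the empty-vector list 6 of 14 peaks had no counterpart in PuER (42.9% [17.7 to 71.1]; 43.8% of that whole list). The share of PU.1 peaks called in a single line was thus close to that of the whole list in each line. Each of the 9 genes held at least 1 PU.1 peak called only in PuER, as did 36.7% of all genes, or 50.3% of the 8127 genes at least as long as Fgr, the shortest of the 9 at 27.8 kb.

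**Figure D1:**
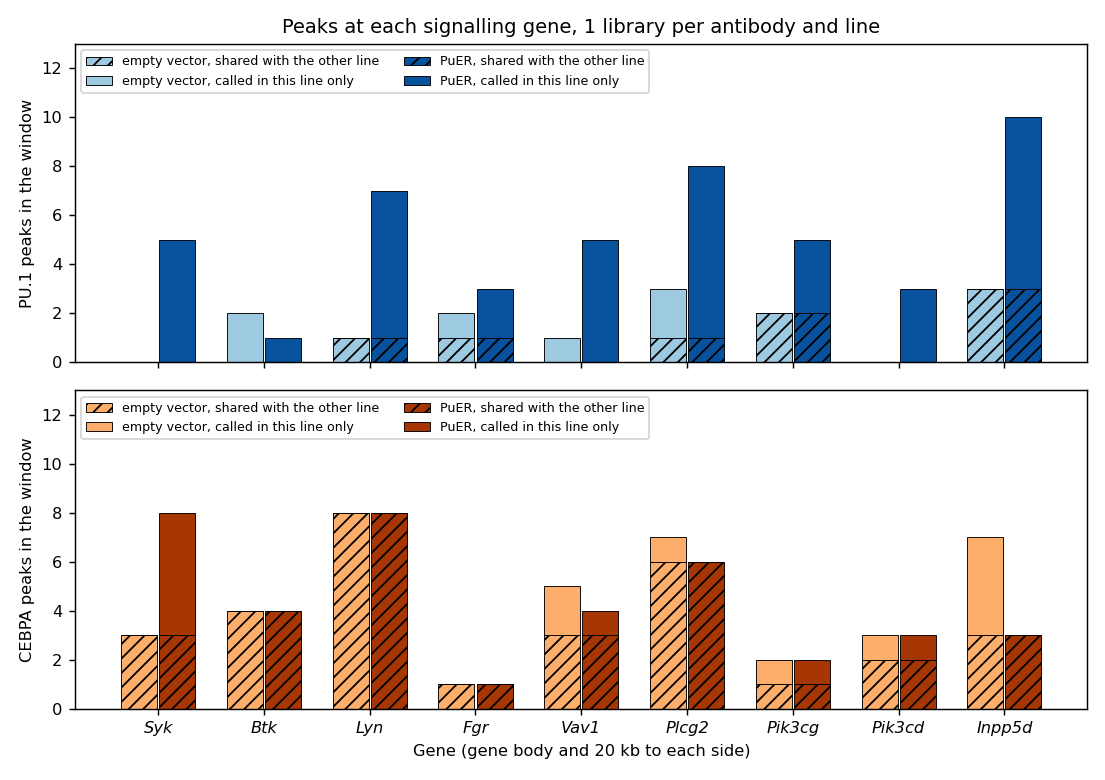
Number of peaks (vertical axis) in the window of each gene (horizontal axis) for PU.1 (upper panel) and CEBPA (lower panel), in empty vector and in PuER; hatched parts are shared by the lines, and each bar is 1 library with no replicate. PU.1 bars are higher in PuER at every gene except Btk, where they stand at 2 and 1.

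CEBPA peaks were nearly as many in either line at these genes, with 40 in the empty-vector line and 39 in PuER, 31 of them shared, and each gene had at least 1 in both. The whole CEBPA list held 26119 peaks in the empty-vector line and 20583 in PuER, so that the 9 genes held 0.153% and 0.189% of them. A CEBPA peak was present at 56.5% of all genes in the empty-vector line and at 51.3% in PuER. Peaks called only in the empty-vector line made up 9 of 40 (22.5% [10.8 to 38.5]; 30.7% of the whole list), and peaks called only in PuER made up 8 of 39 (20.5% [9.30 to 36.5]; 12.1% of the whole list). Shared calls were at nearly the same position. The centres of shared CEBPA peaks were 0 to 56 bp apart with a median of 7 bp, and those of shared PU.1 peaks 4 to 70 bp apart with a median of 32.5 bp. By contrast, the nearest empty-vector PU.1 peak to any PuER-only peak at these genes was 604 bp away, at Inpp5d.

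**Figure D2:**
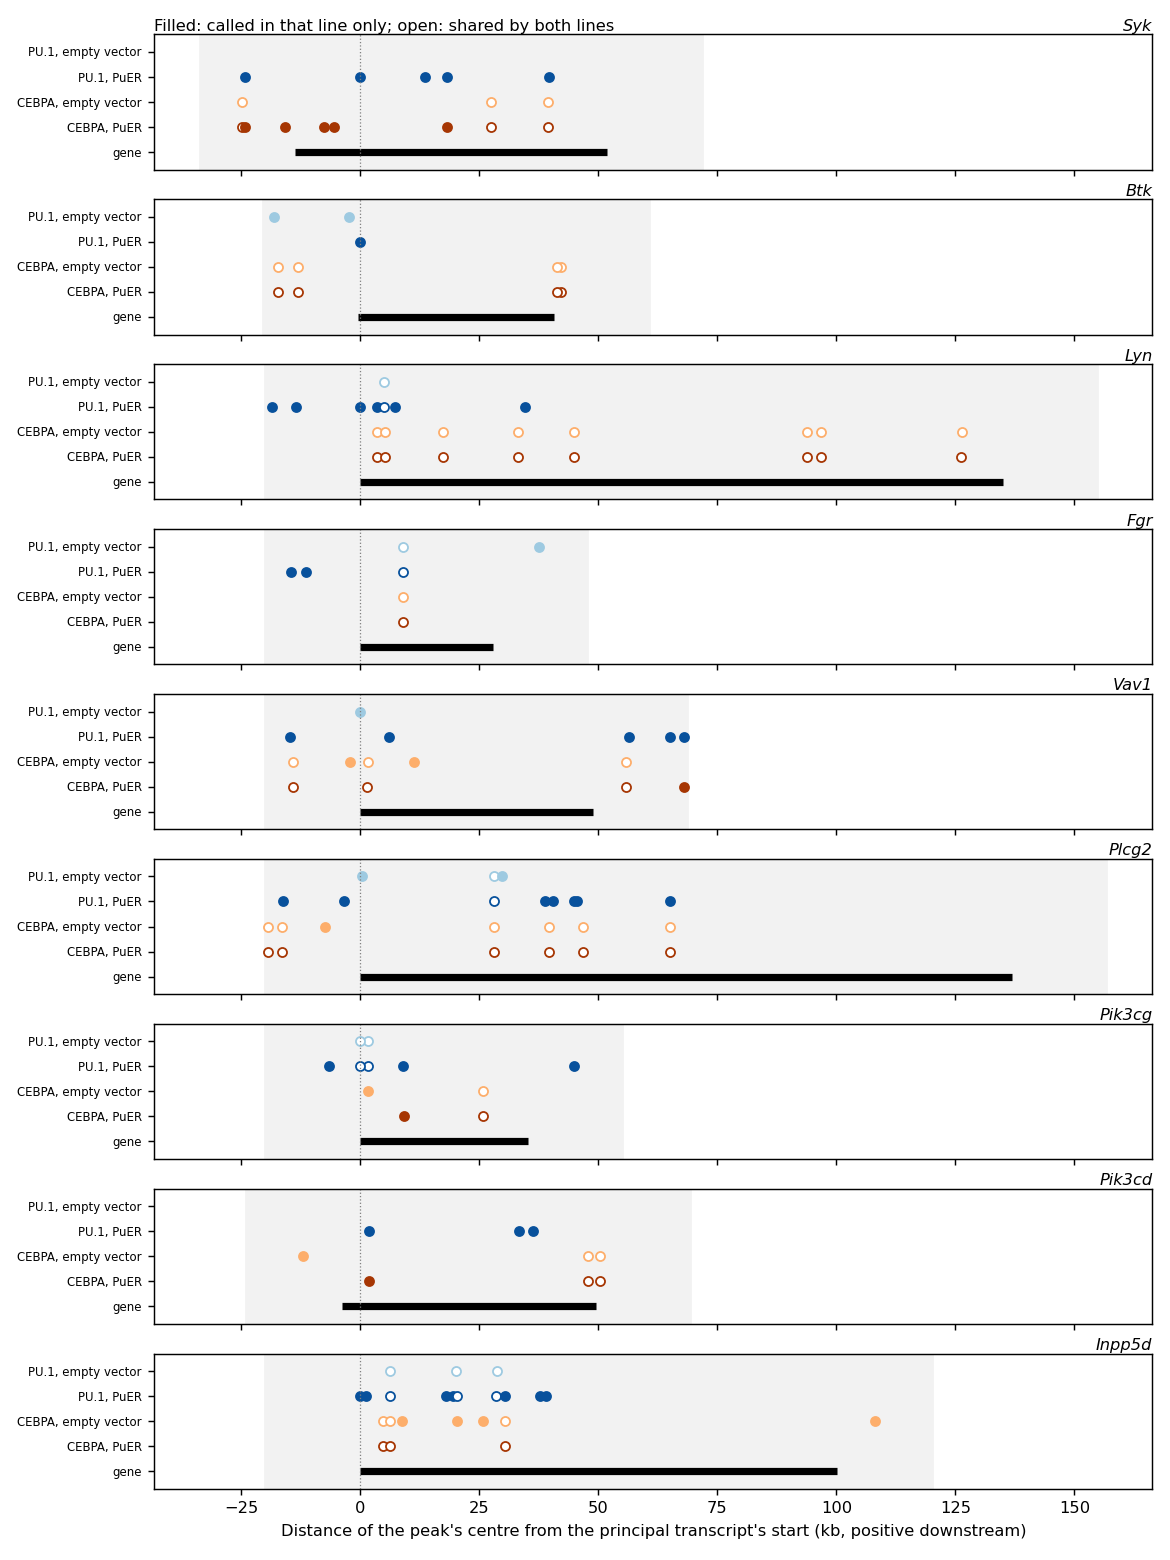
Peak positions at each gene in the 4 lists, as the distance (kb) of the peak's centre from the start of the principal transcript; open circles are shared by both lines, filled circles were called in that line only, the black bar is the gene and grey the window searched. Filled PuER PU.1 circles lie at the start of Lyn, Syk, Btk and Inpp5d, and filled CEBPA circles in PuER are mostly at Syk.

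Lyn (mm10 chr4:3678115-3813122, plus strand) and Fgr (chr4:132974095-133001910, plus strand) encode Src-family kinases of myeloid and B cells. At Lyn there was 1 PU.1 peak in the empty-vector line and 7 in PuER, 1 of them shared, and 8 CEBPA peaks in each line, all shared. The shared PU.1 peak was in intron 1, 4.93 kb from the start. Around it, PuER-only peaks were called at the start itself (1 bp from it), and in intron 1 at 3.56, 7.26 and 34.5 kb, with another pair 13.5 and 18.6 kb upstream. The peak at 3.56 kb overlapped a CEBPA peak present in both lines, with centres 82 bp apart in PuER. The shared PU.1 peak also overlapped a CEBPA peak of both lines, with centres 341 bp apart in PuER. CEBPA peaks at Lyn extended to 126 kb from the start, and no PU.1 peak was called beyond 34.5 kb.

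At Fgr there were 2 PU.1 peaks in the empty-vector line and 3 in PuER, and 1 CEBPA peak in each. A site in intron 1, 8.98 kb from the start, was occupied in all 4 lists. Both PuER-only PU.1 peaks were upstream, at 11.3 and 14.5 kb, and both had a GAGGAA core in the central 80 bp. The empty-vector-only peak in the Fgr window lay 37.5 kb from the Fgr start, 60 bp from the start of a neighbouring gene, Ahdc1.

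Syk (chr13:52583173-52648792, plus strand) encodes the tandem SH2 kinase that binds phosphorylated receptor tails. It had no PU.1 peak in the empty-vector line and 5 in PuER. CEBPA peaks numbered 3 in the empty-vector line and 8 in PuER, 3 of them shared. It was the gene where CEBPA differed most between lines, as 5 of the 8 PuER-only CEBPA peaks of the 9 genes were here. Among them, 2 coincided with PuER-only PU.1 peaks, 24.2 kb upstream of the principal start (centres 66 bp apart) and 18.3 kb downstream of it in intron 3 (centres 2 bp apart). The other 3 CEBPA peaks, 15.8, 7.65 and 5.49 kb upstream of the principal start, overlapped no PU.1 peak, and the nearer 2 of these were inside the gene as annotated, because other Syk transcripts start further upstream. A PuER-only PU.1 peak also stood 53 bp from the principal start, with GAGGAA and ACTTCC in the printed run. A PU.1 peak in intron 1, at 13.6 kb, overlapped no CEBPA peak, and one in intron 9 overlapped a CEBPA peak of both lines.

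Btk (chrX:134542336-134583570, minus strand) encodes the Tec-family kinase that phosphorylates phospholipase C gamma. It was the only one of the 9 with fewer PU.1 peaks in PuER (1) than in the empty-vector line (2), and the 3 peaks were at different places. The PuER peak was centred 13 bp from the principal start of Btk. The empty-vector peaks were 2.34 and 18.1 kb upstream, 170 bp from the start of Rpl36a and 13 bp from that of Hnrnph2. CEBPA was called at the same 4 sites in both lines, and none was closer to the start of Btk than 13 kb. All 4 had the nearest coding start at Timm8a1 or Gla rather than Btk. The Btk window is gene-dense, with 4 other coding genes in it.

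Vav1 (chr17:57279100-57328031, plus strand) encodes a haematopoietic guanine nucleotide exchange factor. It had 1 PU.1 peak in the empty-vector line and 5 in PuER, none of them shared. The empty-vector peak was centred 8 bp from an annotated Vav1 start, while no PuER peak was called within 6 kb of the start. The nearest was in intron 1 at 6.12 kb, and another was 14.8 kb upstream, with the start of Trip10 as its nearest coding start. The other 3 were downstream of the gene at 56.4, 65.1 and 68 kb from the start, and had the start of Adgre1, which encodes the macrophage surface protein F4/80, as their nearest coding start. The last of them coincided with a PuER-only CEBPA peak, 4 bp between centres. CEBPA had 5 peaks in the empty-vector line and 4 in PuER, with 3 shared, and the peaks at 2.17 kb upstream and 11.3 kb downstream of the start were called in the empty-vector line only.

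Plcg2 (chr8:117498291-117635142, plus strand) encodes the phospholipase C gamma isoform prominent in B cells and myeloid cells. PU.1 peaks numbered 3 in the empty-vector line and 8 in PuER, 1 of them shared, and CEBPA peaks 7 and 6, with 6 shared. The shared PU.1 peak, in intron 2 and 28.1 kb from the start, overlapped a CEBPA peak of both lines. Also in intron 2, a group of 4 PuER-only PU.1 peaks spanned 6.78 kb, from 38.9 to 45.6 kb from the start, and none of the 4 overlapped a CEBPA peak. Of the 4, 3 contained the PU.1-type site GAGGAAGT in the central 80 bp, and these windows are printed here for that reason. The group was singled out after its positions were seen.
Plcg2, intron 2, first, chr8:117538846-117538925: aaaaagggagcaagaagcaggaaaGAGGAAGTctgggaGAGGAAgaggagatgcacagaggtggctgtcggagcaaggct
Plcg2, intron 2, next, chr8:117543125-117543204: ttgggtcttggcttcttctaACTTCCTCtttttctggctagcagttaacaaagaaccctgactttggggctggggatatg
Plcg2, intron 2, last, chr8:117543884-117543963: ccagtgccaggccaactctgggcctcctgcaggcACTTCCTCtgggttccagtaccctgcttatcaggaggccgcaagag
PU.1-type sites were also present in the PuER-only peaks 3.29 and 16.3 kb upstream, so that 5 of the 8 PuER peaks at Plcg2 held one. Near the start the lines differed in the other direction, since a peak in intron 1, 350 bp from the start, was called only in the empty-vector line although its centre too contains GAGGAAGT. A further empty-vector-only peak lay in intron 2, 29.7 kb from the start and 1661 bp from the nearest PuER peak.

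Pik3cg (chr12:32173473-32208659, minus strand) and Pik3cd (chr4:149649168-149702571, minus strand) encode the gamma and delta catalytic subunits of class I PI 3-kinase, the isoforms most abundant in leucocytes. At Pik3cg there were 2 PU.1 peaks in the empty-vector line, both shared, and 5 in PuER. The shared peaks were at the start (35 bp in PuER) and in intron 1 at 1.61 kb. It was the only gene of the 9 with a PU.1 peak at its own start in both lines. The PuER-only peaks lay 6.63 kb upstream, in intron 4 at 9.09 kb, and downstream of the gene at 44.8 kb. CEBPA had 2 peaks in each line, of which 1 was shared. The unshared pair was at different PU.1 sites. The empty-vector-only CEBPA peak was at the shared PU.1 site in intron 1, where PU.1 was called in both lines and CEBPA was not called in PuER. The PuER-only CEBPA peak was at the PuER-only PU.1 site in intron 4, with 29 bp between centres.

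Pik3cd had no PU.1 peak in the empty-vector line and 3 in PuER. They were in intron 1 at 1.8 kb, intron 2 at 33.4 kb and intron 3 at 36.4 kb, the last 949 bp from an alternative Pik3cd start. CEBPA had 3 peaks in each line, 2 of them shared and near the 3′ end of the gene. The PuER-only CEBPA peak was at the PU.1 site in intron 1, 41 bp between centres, and the empty-vector-only peak was 12 kb upstream of the principal start.

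Inpp5d (chr1:87620312-87720507, plus strand) encodes SHIP1, the haematopoietic inositol 5-phosphatase. It carried the largest number of PU.1 peaks of the 9 in PuER, 10 against 3 in the empty-vector line, and all 3 of the latter were shared. A PuER-only peak was centred 39 bp from the start and another in intron 1, 1.28 kb from the start and 77 bp from an alternative start. In intron 2 there were 7 PU.1 peaks within 21 kb, 5 of them PuER-only and 2 shared. CEBPA went the other way, with 7 peaks in the empty-vector line, 3 in PuER and 3 shared. The 4 CEBPA peaks called only in the empty-vector line were in intron 1 at 8.85 kb, in intron 2 at 20.3 and 25.7 kb, and downstream of the gene at 108 kb. Of these, the peak at 20.3 kb overlapped a PU.1 peak shared by both lines.

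**Figure D3:**
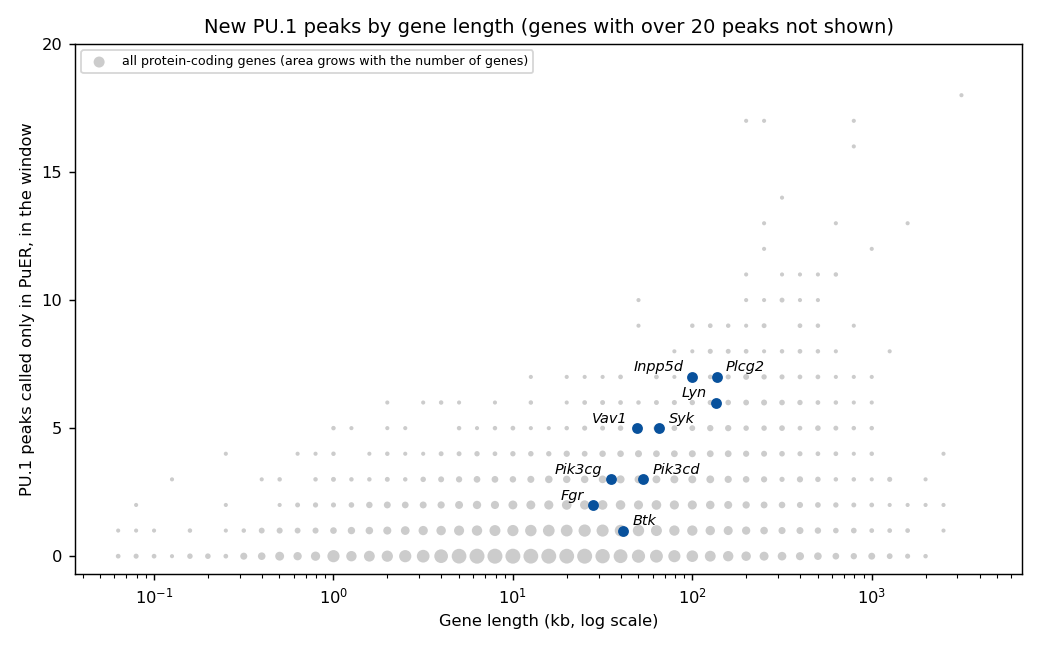
PU.1 peaks called only in PuER (vertical axis) against gene length in kb (horizontal log axis) for all protein-coding genes (grey, area growing with the number of genes at that point) and the 9 genes (blue). Longer genes reach higher counts, and Inpp5d and Plcg2 stand highest of the 9 with 7 each.

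Per gene, the number of PuER-only PU.1 peaks ran from 1 at Btk through 2 at Fgr, 3 at Pik3cg and Pik3cd, 5 at Syk and Vav1 and 6 at Lyn to 7 at Plcg2 and Inpp5d. Over all protein-coding genes, 15.3% had at least 2 such peaks, 6.80% at least 3, 1.75% at least 5, 1.02% at least 6 and 0.569% at least 7. These counts depend on the window. With the gene body alone or 5 kb to each side, Vav1 and Pik3cg had 1 each and Fgr 0. With 50 kb, Pik3cg had 7, and with peaks nearest to the gene's own start, Vav1 had 1. The 9 genes are longer than most, with a median length of 53.4 kb against 17.4 kb, and a longer gene has a wider window. Of the 8127 genes at least as long as Fgr, 122 had 7 or more. Spacing goes with these counts, since a window with many peaks holds them closer together. Another PuER PU.1 peak was found within 5000 bp of 28 of the 47 (59.6% [44.3 to 73.6]), against 26.6% of all PuER PU.1 peaks. The latter were not limited to genes with like counts. Peaks of a group share a locus and are not independent, which the interval does not take into account.

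By position, 29 of the 47 PuER PU.1 peaks were in introns, 11 of these in intron 1, with 5 in non-coding exon sequence, 9 upstream and 4 downstream of the principal transcript. Within 1000 bp of a coding start of the same gene there were 7 (14.9% [6.20 to 28.3]), of which 2 were at Inpp5d and 1 each at Lyn, Syk, Btk, Pik3cg and Pik3cd. The share of all PuER PU.1 peaks within 1000 bp of any coding start was 9.79%. No CEBPA peak was that close to the start of its assigned gene, with 0 of 40 in the empty-vector line (upper bound of the interval 8.81%) and 0 of 39 in PuER (9.03%). The 3 CEBPA peaks in each list that were within 1000 bp of some coding start were in the Btk window at Timm8a1 and Gla. Of all CEBPA peaks, 14.6% in the empty-vector line and 15.2% in PuER were that close to a coding start, against 7.50% [1.57 to 20.4] and 7.69% [1.62 to 20.9] at the 9 genes.

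The PU.1 peaks called only in the empty-vector line differed from this in position. They were found in the windows of 4 genes, Btk, Fgr, Vav1 and Plcg2, and such a peak was present at 13.7% of all genes. Of the 6, 5 were within 1000 bp of a coding start (83.3% [35.9 to 99.6]), against 36.8% of all empty-vector-only PU.1 peaks. Of these 5 starts, 2 were of Vav1 and Plcg2, and 3 were of the neighbouring genes Rpl36a, Hnrnph2 and Ahdc1. None of the 6 overlapped a CEBPA peak of either line, as was the case for 44.7% of all peaks of that class.

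Overlap of PU.1 with CEBPA in PuER was of the same order as in the whole list. Of 47 PuER PU.1 peaks, 14 overlapped a CEBPA peak of that line (29.8% [17.3 to 44.9]; 29.8% of the whole list). Among the 39 PuER-only PU.1 peaks, 29 overlapped no CEBPA peak, 5 lay on a CEBPA peak present in both lines and 5 on a CEBPA peak called only in PuER (12.8% [4.30 to 27.4]; 7.28% of the whole list). The last class, with both factors called only in PuER at the same place, was found at 4 genes, Syk, Vav1, Pik3cg and Pik3cd, and at 4.09% of all genes. Those 4 are also all the genes of the 9 that had any CEBPA peak called only in PuER, a class found at 11.4% of all genes. Seen from CEBPA, 5 of the 8 PuER-only CEBPA peaks overlapped a PuER-only PU.1 peak (62.5% [24.5 to 91.5]; 36.8% of the whole list). CEBPA peaks called only in the empty-vector line were at 5 genes, Vav1, Plcg2, Pik3cg, Pik3cd and Inpp5d, and at 30.1% of all genes. Of those 9 peaks, 2 overlapped a PU.1 peak, in each case a shared one, at Pik3cg and Inpp5d (22.2% [2.81 to 60.0]). Over the whole list of such CEBPA peaks, 6.03% overlapped a PU.1 peak other than a PuER-only one and 3.37% a PuER-only one.

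Strings were searched as exact matches on both strands in the central 80 bp of each peak, and the strings overlap, since GAGGAAGT contains both GGAAGT and GAGGAA. A match is a description of the sequence and not a measured binding site. GGAAGT was present in 19 of 47 PuER PU.1 peaks (40.4% [26.4 to 55.7]), in 43.5% of the whole list and in 5.32% of windows 2000 bp to either side of the peaks at these genes. GAGGAAGT was present in 9 of 47 (19.1% [9.15 to 33.3]; 15.2% of the whole list), all at Plcg2 (5), Pik3cg (2) and Inpp5d (2). The shorter core GAGGAA, a string added after the data were seen, was present in 25 of 47 (53.2% [38.1 to 67.9]; 41.6% of the whole list). Each of the 9 genes had such a peak, and no share of all genes is given for this count. The core was also present in 18.1% of the flanking windows at these genes, against 7.33% of flanking windows of the whole list. In the whole 400 bp, GAGGAA was present in 40 of the 47 (85.1% [71.7 to 93.8]) and in 66.2% of the whole list. It was present in 40.4% of 400-bp windows 2000 bp to either side of the peaks at these genes, and in 33.0% of such windows for the whole list.

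**Figure D4:**
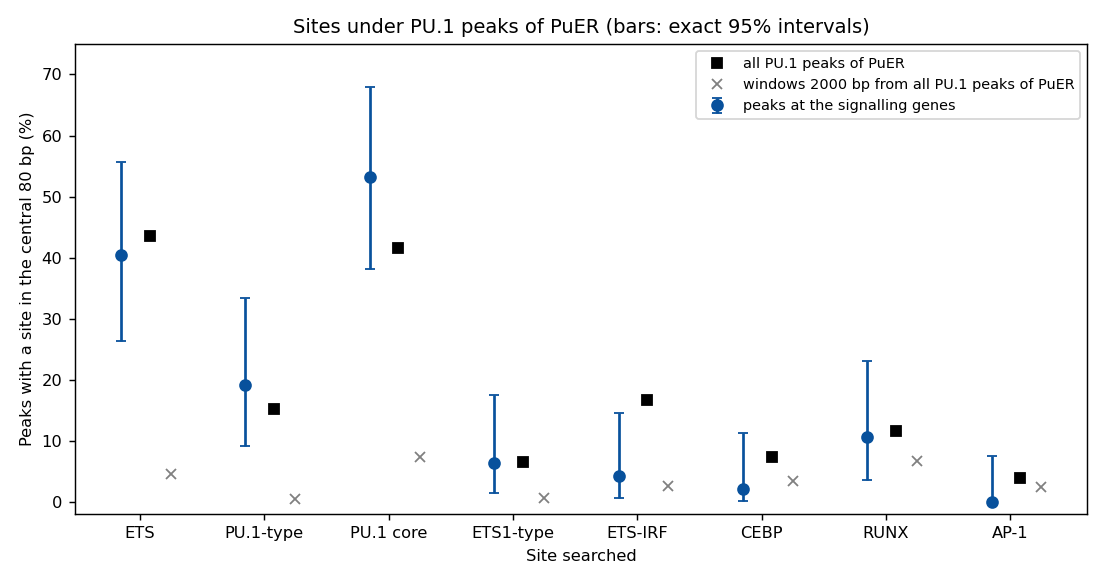
Share (%) of PuER PU.1 peaks with each site in the central 80 bp, for the 47 peaks at the 9 genes (blue circles with exact 95% intervals), all peaks of the list (black squares) and windows 2000 bp from all peaks of the list (grey crosses). ETS and PU.1-type shares are near those of the list, and the ETS-IRF share, 4.26%, is below the list's 16.7%. The PU.1 core (GAGGAA) share is 53.2% against 41.6% of the list, which lies within its interval. Windows flanking the peaks at the 9 genes, not drawn, hold the core at 18.1%.

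The composite ETS-IRF string GGAANNGAA, which PU.1 can bind with an interferon regulatory factor, was present in 2 of the 47 (4.26% [0.520 to 14.5]), in Plcg2 intron 2 and Pik3cd intron 1, against 16.7% of the whole list. An ETS1-type site (CAGGAAGT or CCGGAAGT) was present in 3 of the 47, and 6.43% of the whole list held one. RUNX strings (TGTGGT or TGCGGT) were present in 5 of the 47 and 11.5% of the list. TTGCNNAA was present in 1 (7.31% of the list), the Pik3cg intron 4 site where CEBPA was called too. The match lay outside the central 80 bp of the CEBPA peak there. The AP-1 string TGANTCA was present in none (0.00 to 7.55% by the exact interval; 3.90% of the list). In CEBPA peaks, TTGCNNAA was present in 15 of 40 in the empty-vector line (37.5% [22.7 to 54.2]; 35.6% of the list) and 14 of 39 in PuER (35.9% [21.2 to 52.8]; 38.2% of the list). Of the 8 PuER-only CEBPA peaks, 1 held it in the central 80 bp, 5.49 kb upstream of the principal start of Syk. The share was 12.5% [0.316 to 52.7], against 30.8% of PuER-only CEBPA peaks in the whole list. In the whole 400 bp, TTGCNNAA was also present in the Syk peaks 7.65 kb upstream and 18.3 kb downstream of the principal start. The Pik3cg intron 4 peak held it too, and the remaining PuER-only CEBPA peaks did not. No whole-list share is given for 400 bp.

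RefSeq promoter sequences (250 bp before to 50 bp after a start, GRCm38) were matched for 8 of the 9 genes, 12 promoters in all, with none for Lyn. Promoters of a gene can overlap each other. GGAAGT was present in 7 of the 12, at 6 genes, against 23.8% of all promoters in the table. GAGGAAGT was present in 4 of the 12, at 3 genes, against 3.20%. TTGCNNAA was present in none, against 10.8%.

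The genes were set beside 17 paralogues, chosen by family. Over the paralogues' windows there were 29 PuER-only PU.1 peaks, or 1.33 per 100 kb, against 39 and 3.88 per 100 kb for the 9 genes. The 9 genes were chosen with earlier results of these data known, so their higher density is a description only. No density over all genes is given. PU.1 peaks of the empty-vector line stood at 0.458 and 1.39 per 100 kb. The difference was smaller for CEBPA, at 2.34 and 3.88 peaks per 100 kb in PuER. Of the 17 paralogues, 10 had a PuER-only PU.1 peak, as did 36.7% of all genes and 50.3% of genes at least as long as Fgr. Family by family the order was not uniform. Plcg1, the broadly expressed phospholipase C gamma, had no PU.1 peak in either line beside the 8 PuER peaks of Plcg2. Inppl1, which encodes SHIP2, had 1 PU.1 peak in PuER, a shared one, beside 10 at Inpp5d. Zap70, the T-cell relative of Syk, had 1. Of the other PI 3-kinase catalytic subunits, Pik3cb had 1 PuER PU.1 peak and Pik3ca none, with 2 empty-vector-only peaks at the latter. Of the Src family, Lck, Src and Blk had no PU.1 peak in either line, Yes1 had 1 in PuER, and Fyn had 4. The order was reversed at Btk, since its relative Tec had 8 PuER-only peaks beside 1 at Btk (5.24 and 1.23 per 100 kb), and Txk, which neighbours Tec, had 2 (2.07 per 100 kb). The windows of Tec and Txk overlap, so that a peak can count for both. Bmx had 1 shared peak. Vav2 had 3 PuER-only peaks and Vav3 had 7, beside 5 at Vav1. Their windows were 205, 385 and 88.9 kb in that order, so that per 100 kb there were 1.46, 1.82 and 5.62. Only 1 of the 5 at Vav1 had a Vav1 start as its nearest coding start. Values by that rule are not given for Vav2 or Vav3.

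**Figure D5:**
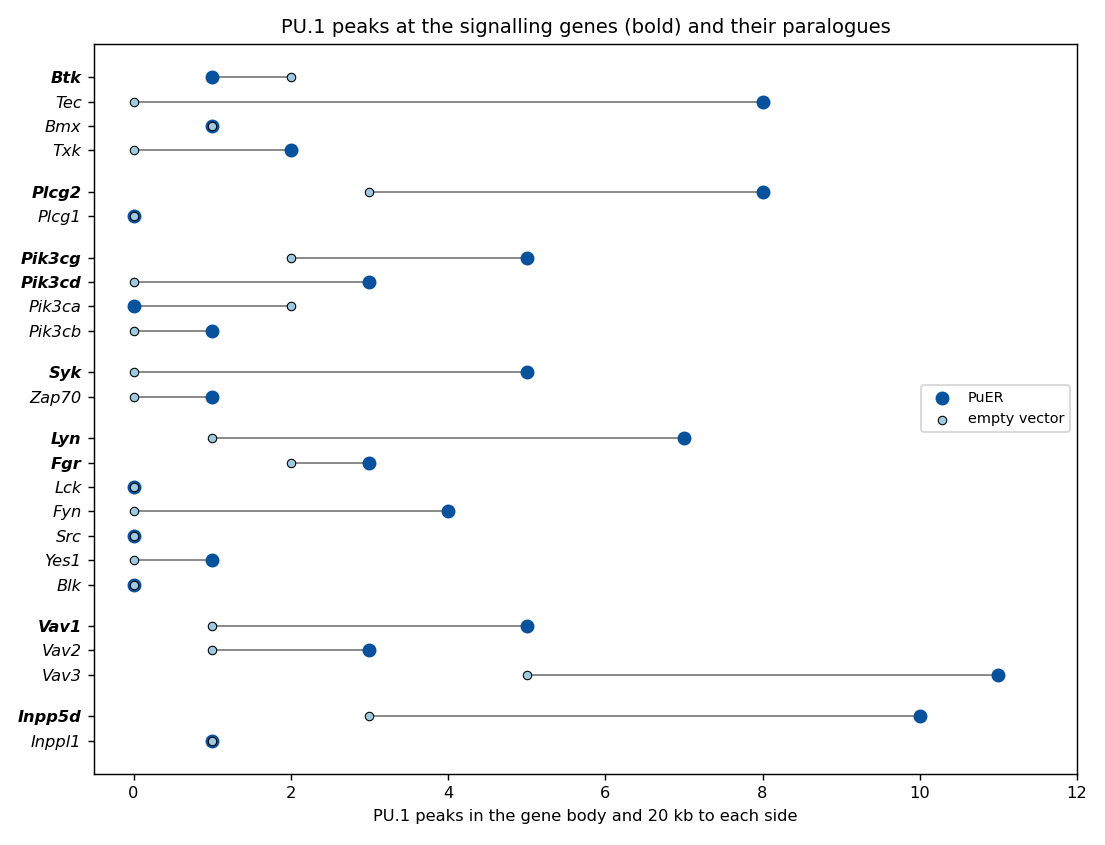
Number of PU.1 peaks (horizontal axis) in the windows of the 9 genes (bold) and the paralogues named here, grouped by family, in empty vector (small light circles) and PuER (large dark circles), 1 library each. In PuER, Tec stands at 8 beside 1 at Btk and Vav3, whose window is wider (385 against 88.9 kb), at 11 beside 5 at Vav1, while Plcg1 stands at 0 beside 8 at Plcg2.

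A wider list of 50 proximal signalling genes, which includes the paralogues, gave 37 with a PuER-only PU.1 peak (74.0%). The share was 36.7% of all genes and 50.3% of genes at least as long as Fgr. The list was not matched for gene length and was chosen with earlier results of these data known. The median was 2 such peaks per gene, against 5 for the 9 genes and 0 for all genes. Adaptors held them at 11 of 12 genes (41 peaks), negative regulators at 8 of 9 (31 peaks) and class I PI 3-kinase subunits and adaptors at 5 of 8 (16 peaks). Outside the paralogues the highest count was 6, reached by 6 genes. They were the adaptors Lcp2 (SLP-76, a Syk substrate), Grb2, Gab2 and Pik3ap1 (which links receptors to PI 3-kinase), the ubiquitin ligase Cblb and the inhibitory adaptor Dok2. Peaks of PU.1 and CEBPA both called only in PuER at the same place were found at 7 of the 50 genes, and at 4.09% of all genes. Among the 7 were Pik3r5, Pik3r6, Lcp2, Gab2, Dapp1 and Rac2. Pik3r5 and Pik3r6, which are neighbours on chromosome 11, encode the regulatory subunits that pair with the product of Pik3cg. Windows of neighbouring genes overlap, so that a peak can count for both.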

How the data were processed

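PU.1 and CEBPA ChIP-Seq peak lists from the empty-vector and PuER clones of X18.1.1 were used, 1 library per antibody and line. The authors mapped reads to mm10 and called peaks, with Bowtie2 2.0.6 and MACS2 2.0.10 named in the submitters' processing notes. The calling threshold is not given in the sources used here. The deposited lists give the chromosome, start and end of intervals that were all 400 bp wide, with no score or count. The text of the study also mentions a time 0, while the labels give 2 h for both lines, and the lists were taken as labelled.

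Gene models were GENCODE vM21 (GRCm38), and the principal transcript was chosen by APPRIS tag and then coding length. Peaks were assigned by centre (gene body and 20 kb), compared by overlap of at least 1 bp, and placed at a promoter when within 1000 bp of a coding transcript's start. Sequences were read with pysam 0.24.0, and intervals computed with scipy 1.17.1. Scripts were tested on simulated peaks. All 9 genes, their paralogues (with some not reported here by name) and, of the wider list, the genes with the most PuER-only PU.1 peaks were named. The members and lists were chosen with earlier results of these data known. With 1 library per group no test was run. Other windows, overlap rules, promoter distances and motif windows were tried as alternatives. The 4 H3K27Ac or IgG samples were left out, and the peak lists hold no expression values with which to check the labelled cell type.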

Additional observations from a re-analysis of the deposited data

How the results depend on the processing

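The tolerance was a count within 1.5 times or a share within its interval. Values over the 9 genes stayed within it in 50 of 64 comparisons of a value with an alternative setting. Single-gene counts did so in 46 of 54 such comparisons. Requiring 50% overlap or centres within 100 bp changed no count of shared peaks. With the gene body alone, 3 PU.1 peaks were called only in the empty-vector line, CEBPA had 26 peaks in that line with 5 called only there, and 5 CEBPA peaks were called only in PuER. With 50 kb to each side, CEBPA had 60 peaks in PuER, 13 of them called only in PuER. With peaks whose nearest coding start was the gene's own, 3 empty-vector-only PU.1 peaks were left. All 9 genes had a PuER-only PU.1 peak except with the gene body alone or 5 kb, where 8 did, as those of Fgr lie further upstream. The ETS share was 66.0% in the central 200 bp and 74.5% in the whole peak, the PU.1-type share 34.0% and 36.2%, and the GAGGAA string, chosen after the data were seen, gave 53.2%. A PuER-only PU.1 peak was present at 50.3% of genes at least as long as Fgr and at 52.7% of all genes with 50 kb. These settings differ in the bases, peaks, genes or string they cover. No replicate could be left out. No paired analysis was possible because each antibody had 1 library per line and no test was run. A site not called may lie under the calling threshold of its library, whose depth is unknown.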
